A study of Homo sapiens with 8 samples.

Results

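The tumour necrosis factor (TNF) superfamily of ligands and receptors was followed in HSC-5, an established line from a human squamous cell carcinoma of the skin, after Cas9 had been directed to EZH2. Members were the rows of the count table whose symbol begins with TNFSF or TNFRSF, and the rows TNF, LTA, LTB, FAS, FASLG, CD27, CD40, CD40LG, CD70, LTBR, NGFR and EDAR. This gave 45 of 20294 genes: 17 ligands, 8 receptors with a death domain, 15 signalling receptors without one, 4 decoy or soluble receptors and the readthrough row TNFSF12-TNFSF13.

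The design asks what each guide did relative to control, whether the guides differed, and what they shared. The groups were 3 libraries with the guide RNA sgEZH2-1, 3 libraries with the guide RNA sgEZH2-2 and 2 control libraries with the empty vector. Every group consisted of HSC-5 cells grown in serum-containing medium. Per the series' design text, the line stably expressed Cas9 from a lentivirus, guide carriers were selected with G418, and RNA was taken right after selection. The same text reports that loss of the EZH2 protein was checked by western blot and that a further control, which clustered apart, was left out by the authors. Separate cultures or clones are not named for the libraries of a group. The p-values therefore rest on the spread from library to library, which may be no more than technical.

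TNF superfamily ligands are mostly trimeric membrane proteins that can be shed, and they cluster their receptors on the facing or the same cell. Receptors with a death domain can recruit FADD or TRADD and lead to caspase-8 activation or to NF-kB signalling, and receptors without one bind TRAF adaptors. Decoy receptors hold ligand without passing the signal on. In skin the family is known for ectodysplasin signalling in hair, sweat gland and tooth formation, for TNF in inflammation, and for FAS and the TRAIL receptors in keratinocyte death. EZH2 is the histone methyltransferase of the Polycomb system, and its mark on histone H3 goes with gene repression.

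Library totals ran from 12900023 to 14724566 counts with sgEZH2-1, from 12607952 to 14257843 with sgEZH2-2, and stood at 14299479 and 15468597 in the controls. The EZH2 transcript was at 56.4, 56.3 and 48.0 CPM (a gene's count relative to the scaled total of its library) with sgEZH2-1, at 73.8, 67.5 and 65.1 CPM with sgEZH2-2, and at 82.7 and 84.1 CPM in the controls. The guide libraries all lay below both controls. The transcript fell with sgEZH2-1 (log2 fold change -0.64, adjusted p = 0.000529), while -0.28 with sgEZH2-2 missed the threshold of 0.05 (adjusted p = 0.0699). All adjusted p-values are from edgeR's quasi-likelihood test unless another tool is named. The 12 keratinocyte markers were all tested and summed to 3152 to 3818 CPM with sgEZH2-1, 3218 to 3387 CPM with sgEZH2-2, and 3689 and 3906 CPM in the controls. Members of that list did not move as one: with sgEZH2-1, KRT16 (1.09), KRT17 (0.82) and KRT6A (0.38) rose on the log2 scale and TP63 fell (-1.01, adjusted p = 1.3e-05), and with sgEZH2-2, KRT5, DSG3, DSC3 and PKP1 fell (-0.30 to -0.36). KRT14 was near 0, at 0.617 CPM with sgEZH2-1, 0.796 CPM with sgEZH2-2 and 0.474 CPM in the controls. Of 15 leukocyte markers 8 had 0 counts in every library, among them CD3E and TYROBP, and the list summed to 12.9 to 16.7 CPM with sgEZH2-1, 10.6 to 12.6 CPM with sgEZH2-2, and 13.1 and 13.3 CPM in the controls. Fibroblast and endothelial markers were low but not even: they summed to 5.02 to 8.96 and 11.7 to 17.9 CPM with sgEZH2-1, to 11.04 to 14.1 and 19.2 to 24.1 CPM with sgEZH2-2, and to 6.13 to 7.24 and 8.54 to 12.4 CPM in the controls. The melanocyte list stayed between 27.9 and 33.1 CPM in the 8 libraries. The part of other cell types in the results below was not tested. In bulk RNA, fewer cells that carry a transcript and less transcript per cell cannot be told apart.

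Of the 45 members, 23 had enough counts to be tested (51.1%, against 64.7% of all genes), and 22 did not. Receptors made up most of the detected family: all 8 death receptors, 8 of 15 receptors without a death domain and 2 of 4 decoy or soluble receptors were tested, against 5 of 17 ligands. The rest included immune cell genes: CD40LG, LTB, TNFSF11, TNFRSF4, TNFRSF13B and TNFRSF17 had 0 counts in each library. TNF itself had 0, 1 and 1 counts with sgEZH2-1, 0, 0 and 0 with sgEZH2-2, and 0 and 0 in the controls. LTA and FASLG each had 1 count in 1 guide library and 0 in the rest. At this depth such members were not detectable, which does not show that they are absent. Of the 22 untested members 14 had 10 or fewer counts over all 8 libraries, and the highest count in a single library was 12.

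Some rows depend on how overlapping genes were counted. TNFSF12, which encodes the ligand TWEAK, and the readthrough row TNFSF12-TNFSF13 held at most 3 counts in any library, although TNFSF13 next to them held 237 to 356. In GENCODE release 29, 55.5% of the merged TNFSF13 exons and 100% of those of TNFSF12-TNFSF13 lie in exons of another gene on the same strand. For TNFRSF6B, a soluble decoy, the share is also 100%. Counts of these genes are therefore uncertain.

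**Figure D1:**
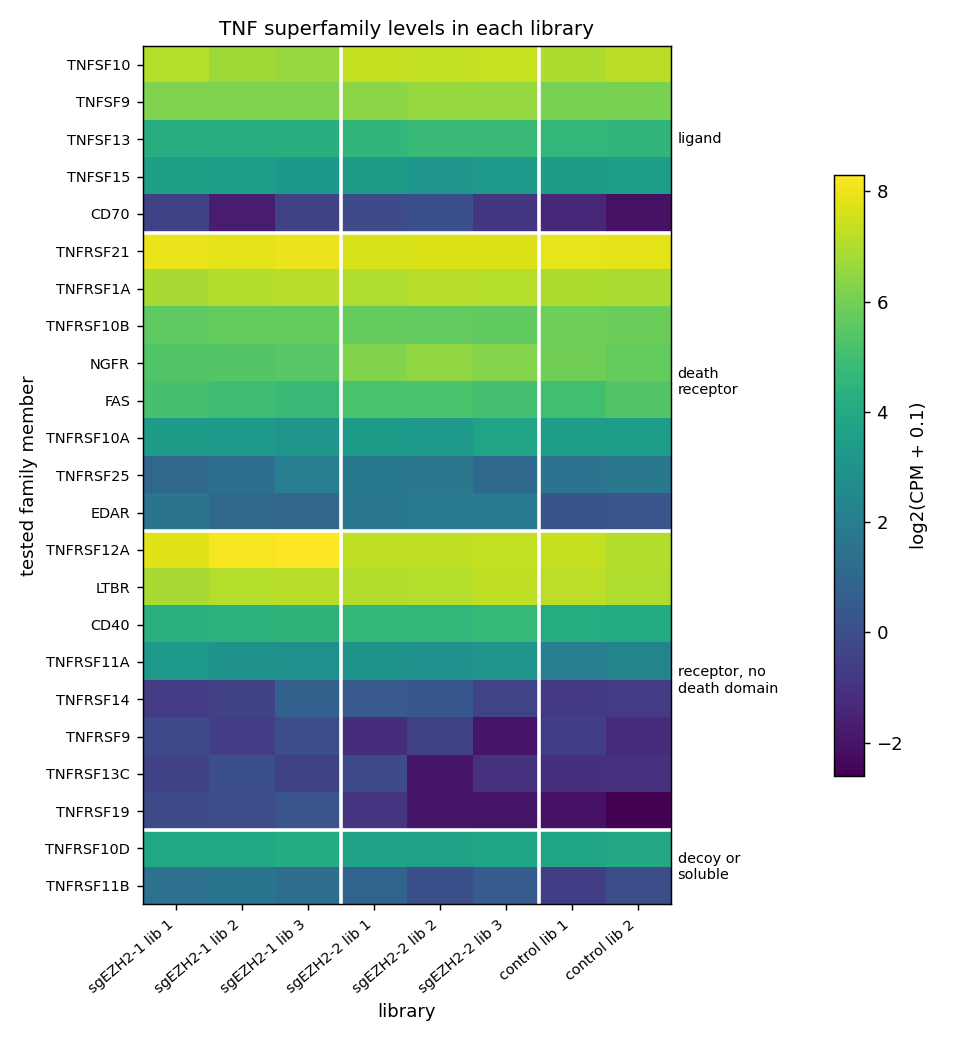
Level of the 23 tested members in each library, as log2(CPM + 0.1), with rows grouped by role and ordered by the control mean, and with the 3 sgEZH2-1, 3 sgEZH2-2 and 2 control libraries from left to right. In the sgEZH2-1 columns TNFRSF21 and TNFRSF12A are the brightest rows, and in the sgEZH2-2 columns TNFSF10 is brighter than TNFRSF12A. The TNFRSF12A row is brightest with sgEZH2-1, and the EDAR, TNFRSF11A and TNFRSF19 rows are darkest in the control columns.

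The most abundant members per transcript length were TNFRSF12A and TNFRSF21. TNFRSF12A encodes Fn14, the receptor of TWEAK, and averaged 148 CPM per kilobase of merged exons with sgEZH2-1, 83.6 with sgEZH2-2 and 79.7 in the controls. TNFRSF21 encodes death receptor 6 and averaged 68.6 CPM per kilobase with sgEZH2-1, 58.1 with sgEZH2-2 and 64.8 in the controls. On the same scale of level per length the controls ran on with TNFSF9 (41.1), TNFSF10 (38.6), TNFRSF1A (30.8), LTBR (21.9), NGFR (13.8), TNFRSF10B (11.3), TNFSF13 (10.5), FAS (8.56) and CD40 (6.81). Neighbours in this order such as TNFSF9 and TNFSF10, with 41.1 and 38.6, or TNFRSF10B and TNFSF13, with 11.3 and 10.5, stand close together, and their difference was not tested. In the sgEZH2-1 libraries TNFRSF12A made up 32.1%, 37.9% and 39.7% of the family's summed level per length, against 22.8%, 22.1% and 22.5% with sgEZH2-2 and 25.2% and 21.6% in the controls.

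**Figure D2:**
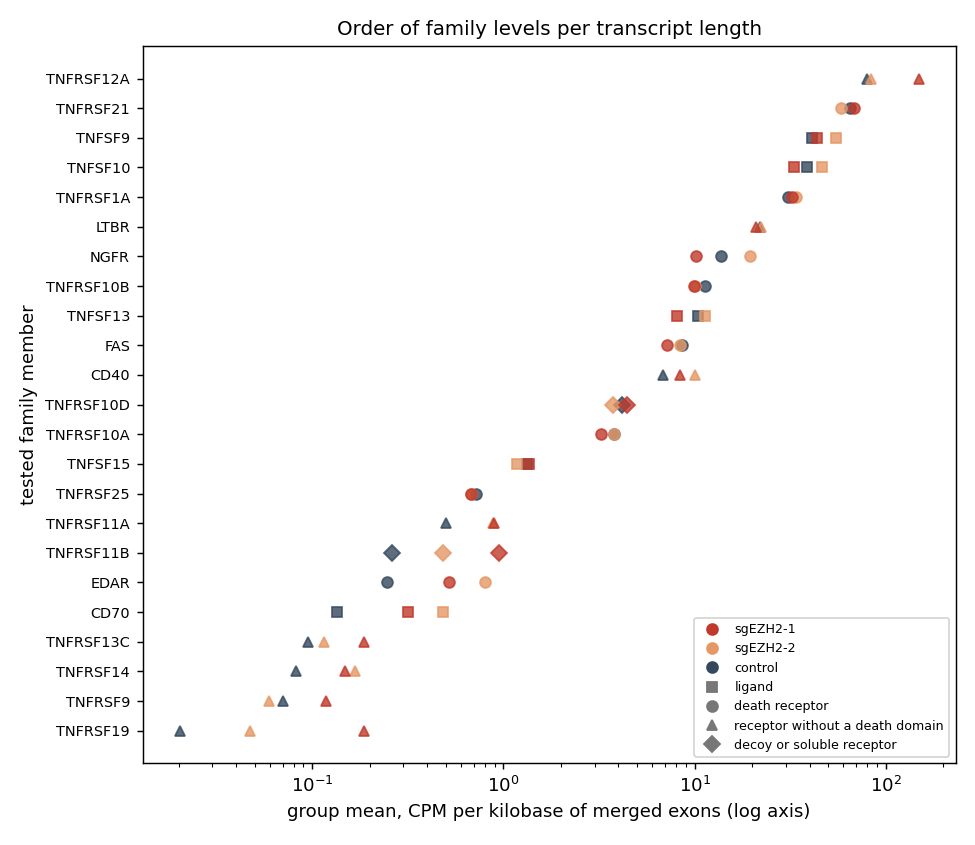
Mean level of the 23 tested members in each group, in CPM per kilobase of merged exons on a log axis, with colour for the group and marker shape for the role. TNFRSF12A at 148 with sgEZH2-1 stands apart from its 83.6 with sgEZH2-2 and 79.7 in the controls, and the lowest members, such as TNFRSF19, lie below 1 in every group.

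Each guide moved a minority of the tested members. With sgEZH2-1, 6 of 23 were called higher and 2 lower. Of all 13124 tested genes 20.8% were called in this comparison, 11.3% higher and 9.52% lower. With sgEZH2-2, 5 of 23 rose and 0 fell. Of all genes 8.68% were called here, 6.18% higher and 2.5% lower. Beside the 0, 2 members were lower at an unadjusted p under 0.05 with sgEZH2-2, and DESeq2 called 0 lower and 5 higher. The median log2 fold change of the tested members was 0.081 with sgEZH2-1, against -0.0094 over all genes, and 0.13 with sgEZH2-2, against 0.00089. Both comparisons use the same 2 controls. Of the 23, the 6 members CD70, TNFRSF9, TNFRSF11B, TNFRSF13C, TNFRSF14 and TNFRSF19 passed the filter on low counts only through guide libraries, since fewer than 2 controls reached the filter's level of 0.700 CPM, so they had to be higher in some guide library to be tested. The counts and medians over tested members are therefore a description only.

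Pooling both guides against control left 2 of 23 members higher, EDAR and TNFRSF11A, and 0 lower. Of all genes 4.36% were called, 3.76% higher and 0.594% lower. At an unadjusted p under 0.05, 6 members were higher and 1 lower, and DESeq2 called 3 higher and 0 lower. In a fit that kept the guides as separate groups, the mean of both guides was past the threshold in 6 members.

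**Figure D3:**
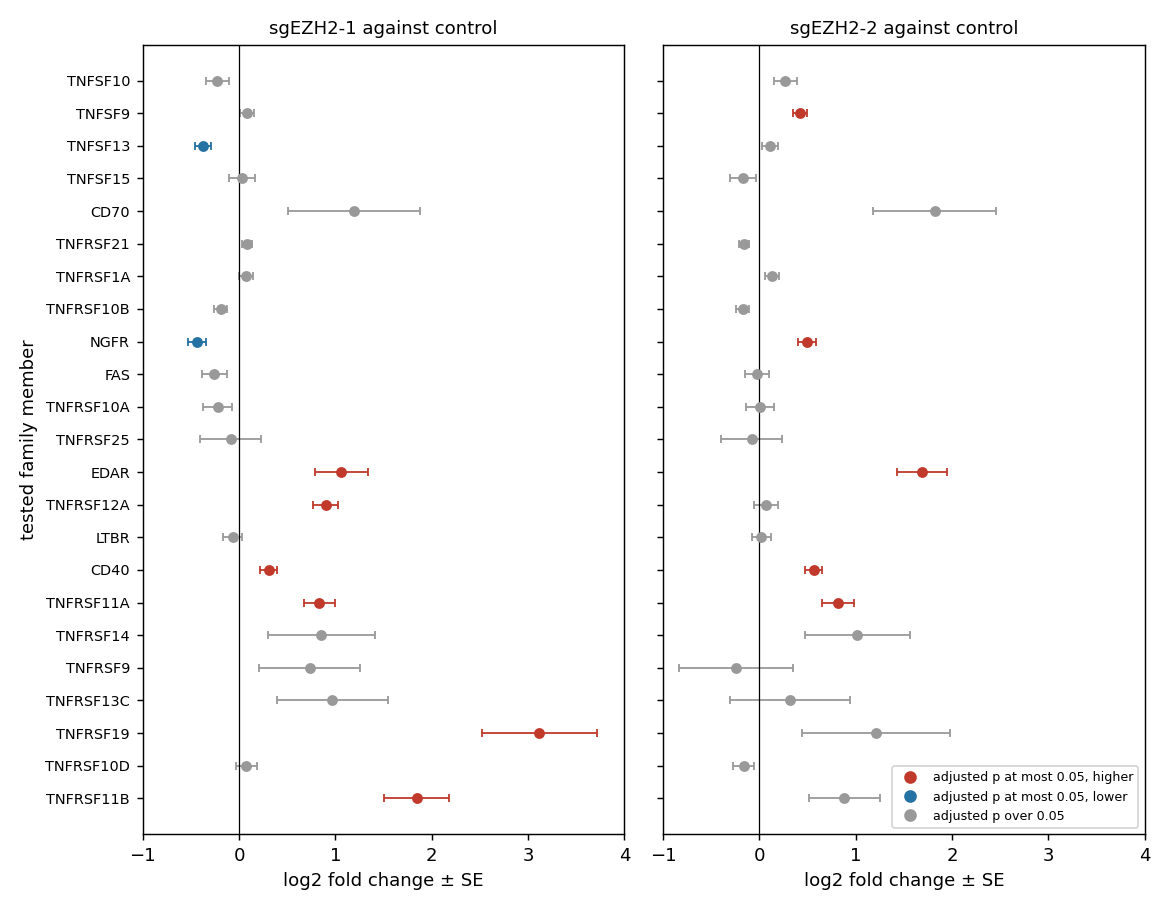
Log2 fold change with its SE for the 23 tested members, sgEZH2-1 against control on the left and sgEZH2-2 against control on the right. EDAR, CD40 and TNFRSF11A are past the threshold and higher in both panels, NGFR is lower on the left and higher on the right, and TNFRSF12A is far from 0 only on the left; the panels share the 2 controls.

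EDAR, TNFRSF11A and CD40 were higher with each guide. EDAR is the ectodysplasin receptor, a death domain protein of skin appendage formation (chromosome 2, 108894471 to 108989372, minus strand, GRCh38). It was at 2.93, 2.05 and 1.89 CPM with sgEZH2-1, at 3.31, 3.62 and 3.66 CPM with sgEZH2-2, and at 1.06 and 1.11 CPM in the controls. The guide libraries all lay above both controls, and the sgEZH2-2 libraries above those of sgEZH2-1. EDAR rose by 1.06 on the log2 scale with sgEZH2-1 (SE 0.27, adjusted p = 0.0213) and by 1.69 with sgEZH2-2 (SE 0.26, adjusted p = 0.00303). With the guides pooled the value was 1.41 (adjusted p = 0.0461), and the direct difference between the guides did not pass (-0.63, adjusted p = 0.0547). Without either control the sgEZH2-1 call was lost (adjusted p = 0.113 and 0.0731), with DESeq2 (0.0545) and in a fit of only the groups compared (0.0533). The pooled call was lost without either control (0.329 and 0.254). The pooled call also missed the threshold without the first sgEZH2-1 library (0.0701) and without any 1 of the sgEZH2-2 libraries (0.0697 to 0.0817). Conversely, the difference between the guides passed without the first sgEZH2-1 library (-0.84, adjusted p = 0.0215).

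The ectodysplasin ligand EDA and the adaptor EDARADD have symbols outside the family rule and were on a list of related genes. EDA was at 3.40, 2.74 and 2.24 CPM with sgEZH2-1, at 1.86, 1.73 and 2.21 CPM with sgEZH2-2, and at 0.284 and 0.261 CPM in the controls, with no overlap between guide and control libraries. EDA rose by 3.31 on the log2 scale with sgEZH2-1 (SE 0.36, adjusted p = 0.000173) and by 2.79 with sgEZH2-2 (SE 0.38, adjusted p = 0.00131). Both controls lay below the filter's level of 0.700 CPM, so EDA was tested through the guide libraries, where it is high. The values and p-values of EDA are therefore a description, not support for a difference. EDARADD, which links EDAR to TRAF signalling, went the other way. It averaged 14.6 ± 0.998 CPM with sgEZH2-1 (SD, n = 3), 24.2 ± 1.87 CPM with sgEZH2-2 (SD, n = 3) and 31.1 ± 2.35 CPM in the controls (SD, n = 2). On the log2 scale EDARADD stood at -1.09 with sgEZH2-1 (adjusted p = 4.78e-05) and at -0.36 with sgEZH2-2 (adjusted p = 0.0438), and the guides differed by -0.73 (adjusted p = 0.000536). The sgEZH2-2 fall missed the threshold when any library but the first of sgEZH2-1 was left out (adjusted p from 0.0571 to 0.261). DESeq2 did not call the sgEZH2-2 fall of EDARADD. Of the EDARADD exons 32.7% lie in another gene on the same strand. EDA2R, the X-linked second ectodysplasin receptor, had 0 counts in every library, and RELT, another receptor of the family, did not pass with sgEZH2-1 (0.19) or sgEZH2-2 (0.15).

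**Figure D4:**
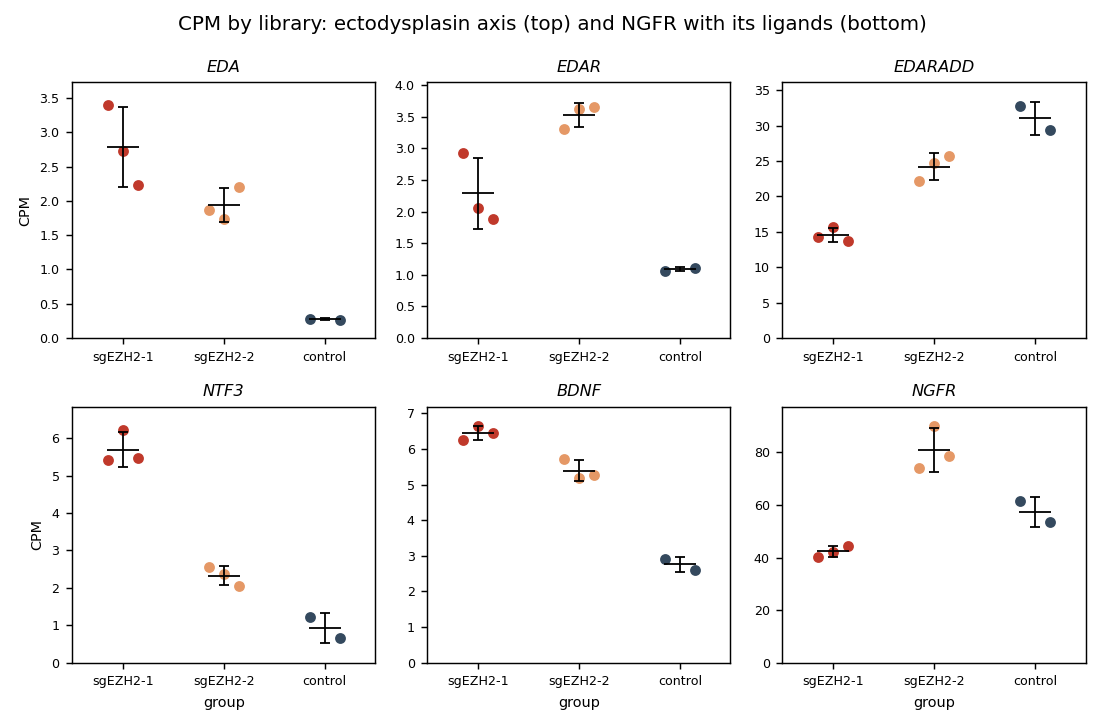
CPM in each library for EDA, EDAR and EDARADD in the upper row and NTF3, BDNF and NGFR in the lower row, with points for libraries, a bar for the group mean and whiskers for the SD. EDA and EDAR are lowest in the controls while EDARADD is highest there at 31.1, and NGFR lies below the controls with sgEZH2-1 and above them with sgEZH2-2.

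TNFRSF11A encodes RANK, the receptor of the osteoclast factor RANKL, which is also used in epithelia (chromosome 18, 62325287 to 62391292). It was at 9.34, 7.73 and 7.14 CPM with sgEZH2-1, at 8.07, 7.39 and 8.39 CPM with sgEZH2-2, and at 4.05 and 4.95 CPM in the controls. The lowest guide library lay above the higher control. Its log2 fold changes were 0.83 with sgEZH2-1 (SE 0.17, adjusted p = 0.00576), 0.82 with sgEZH2-2 (SE 0.17, adjusted p = 0.0132) and 0.83 pooled (SE 0.16, adjusted p = 0.0154). The difference between the guides was 0.018 with an SE of 0.14. Without the first control none of these 3 calls held (adjusted p = 0.0643, 0.117 and 0.230), and without the second the pooled call was lost (0.0787).

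TNFRSF11B encodes osteoprotegerin, the soluble receptor that binds RANKL away from RANK (chromosome 8, 118923557 to 118952200). It was at 2.70, 3.01 and 2.38 CPM with sgEZH2-1, at 1.79, 0.944 and 1.37 CPM with sgEZH2-2, and at 0.568 and 0.913 CPM in the controls. The sgEZH2-1 libraries lay above all others, and the lowest sgEZH2-2 library lay just above the higher control. TNFRSF11B passed the filter on low counts only with guide libraries, since 1 control reached its level, so its values are a description and its p-values no independent support. The log2 fold change was 1.84 with sgEZH2-1 (SE 0.34, adjusted p = 0.00371). With sgEZH2-2 the value was 0.88 (SE 0.37, adjusted p = 0.182), and the guides differed by 0.96 (SE 0.27, adjusted p = 0.0294). That difference was lost without the first (0.0549) or second (0.101) sgEZH2-1 library, without the second (0.107) or the third (0.0866) sgEZH2-2 library, and with DESeq2 (0.0774). The ligand of both receptors, TNFSF11, had 0 counts in every library.

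CD40, a TRAF-binding receptor of antigen-presenting cells that keratinocytes can also carry, was at 20.1, 21.5 and 22.2 CPM with sgEZH2-1, at 25.3, 24.8 and 26.2 CPM with sgEZH2-2, and at 17.8 and 16.6 CPM in the controls. The groups were fully ordered, with sgEZH2-2 highest and the controls lowest. CD40 rose by 0.31 on the log2 scale with sgEZH2-1 (SE 0.084, adjusted p = 0.0274) and by 0.56 with sgEZH2-2 (SE 0.084, adjusted p = 0.00227), and the guides differed by -0.26 (adjusted p = 0.0312). The sgEZH2-1 call was lost without either control (adjusted p = 0.0624 and 0.128), without the second (0.0683) or the third (0.0625) sgEZH2-1 library, and with DESeq2 (0.0865). The difference between the guides was lost without any 1 guide library other than the third of sgEZH2-1 (0.0573 to 0.112). CD40LG, its ligand, had 0 counts throughout.

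Promoter sequence, from 250 bases before to 50 bases after the RefSeq start (GRCh38.p14), was matched by symbol for 28 of the 45 members. A single start per gene was used, and whether these cells use that start was not tested. Shown are the matched members called higher with at least 1 guide, because CG dinucleotides, which mark the promoter type Polycomb is known to occupy, are unevenly spread among them. CG dinucleotides are in capitals.
TNFRSF11A promoter, chr18:62325060-62325359, plus strand: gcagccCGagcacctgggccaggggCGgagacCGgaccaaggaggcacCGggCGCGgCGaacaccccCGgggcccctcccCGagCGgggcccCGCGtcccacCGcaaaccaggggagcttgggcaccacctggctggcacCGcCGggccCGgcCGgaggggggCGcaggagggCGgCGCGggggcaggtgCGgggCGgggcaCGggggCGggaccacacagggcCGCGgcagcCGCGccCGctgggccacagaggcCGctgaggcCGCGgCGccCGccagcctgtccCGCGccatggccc
TNFSF9 promoter, chr19:6530776-6531075, plus strand: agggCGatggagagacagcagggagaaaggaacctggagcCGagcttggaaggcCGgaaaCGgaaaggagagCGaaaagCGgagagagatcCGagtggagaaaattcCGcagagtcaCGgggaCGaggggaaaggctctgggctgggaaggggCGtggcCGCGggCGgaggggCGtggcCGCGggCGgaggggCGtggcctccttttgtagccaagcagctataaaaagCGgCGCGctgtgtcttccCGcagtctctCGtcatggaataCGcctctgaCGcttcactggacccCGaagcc
TNFRSF19 promoter, chr13:23570162-23570461, plus strand: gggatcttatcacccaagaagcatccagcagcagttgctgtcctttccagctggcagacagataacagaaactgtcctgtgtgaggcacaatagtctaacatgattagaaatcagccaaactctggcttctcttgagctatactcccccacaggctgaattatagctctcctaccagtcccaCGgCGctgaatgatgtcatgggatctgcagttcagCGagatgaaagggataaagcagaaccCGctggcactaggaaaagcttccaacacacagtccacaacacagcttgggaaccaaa
TNFRSF11A holds 37 CG dinucleotides in these 300 bases, more than 88.9% of the 27305 promoters of the table. TNFSF9 holds 27, and TNFRSF19 holds 4, where the median promoter holds 14. The median was 12 in the 13 matched members that were tested and 5 in the 15 that were not. TATAAA, searched on both strands, is in 12% of all promoters and in 4 of the 28 members, among them TNFSF9 and TNFSF10. TGANTCA, the AP-1 site, is in 7.76% of all promoters and in 6 of the 28, and the NF-kB consensus is in 5.72% and in 5 of the 28. Neither was found in the 3 windows shown. A match or its lack describes these letters only.

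TNFRSF12A rose with sgEZH2-1 and differed between the guides. TNFRSF12A (chromosome 16, 3018445 to 3022383), an injury-induced receptor, was at 226, 282 and 315 CPM with sgEZH2-1, at 151, 154 and 158 CPM with sgEZH2-2, and at 162 and 132 CPM in the controls. The sgEZH2-1 libraries stood above all others, and those of sgEZH2-2 lay between the controls. Fn14 mRNA rose by 0.90 on the log2 scale with sgEZH2-1 (SE 0.13, adjusted p = 0.000786), and the value was 0.069 with sgEZH2-2 (SE 0.12, adjusted p = 0.799). The guides differed by 0.83 (SE 0.11, adjusted p = 0.000801). Neither the sgEZH2-1 call nor the difference was lost when any single library was left out.

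TNFRSF19, also called TROY, is a receptor linked to WNT signalling and hair follicle stem cells (chromosome 13, 23570370 to 23676104). Its counts were 11, 13 and 16 with sgEZH2-1, 6, 2 and 2 with sgEZH2-2, and 2 and 1 in the controls. The sgEZH2-1 libraries do not overlap the others. Only those 3 libraries reached the level of the filter on low counts, so TNFRSF19 was tested through the group where it is high, and its values and p-values are a description, not support for a difference. Against the 3 control counts the ratio was 9.37 with sgEZH2-1 (95% counting interval 2.99 to 47.4) and 2.43 with sgEZH2-2 (0.626 to 13.8). The edgeR log2 fold changes were 3.12 with sgEZH2-1 (adjusted p = 0.00495) and 1.21 with sgEZH2-2 (adjusted p = 0.402). The value between the guides was 1.91 on the log2 scale (adjusted p = 0.0137), a call lost without the second (0.0556) or the third (0.0577) sgEZH2-2 library. TNFRSF1B, the second TNF receptor, was too low to be tested, with 12, 5 and 5 counts with sgEZH2-1, 5, 4 and 5 with sgEZH2-2, and 1 and 2 in the controls. Its ratio to control was 5.16 with sgEZH2-1 (1.55 to 26.9) and 3.41 with sgEZH2-2 (0.951 to 18.5). Such intervals cover counting error only.

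**Figure D5:**
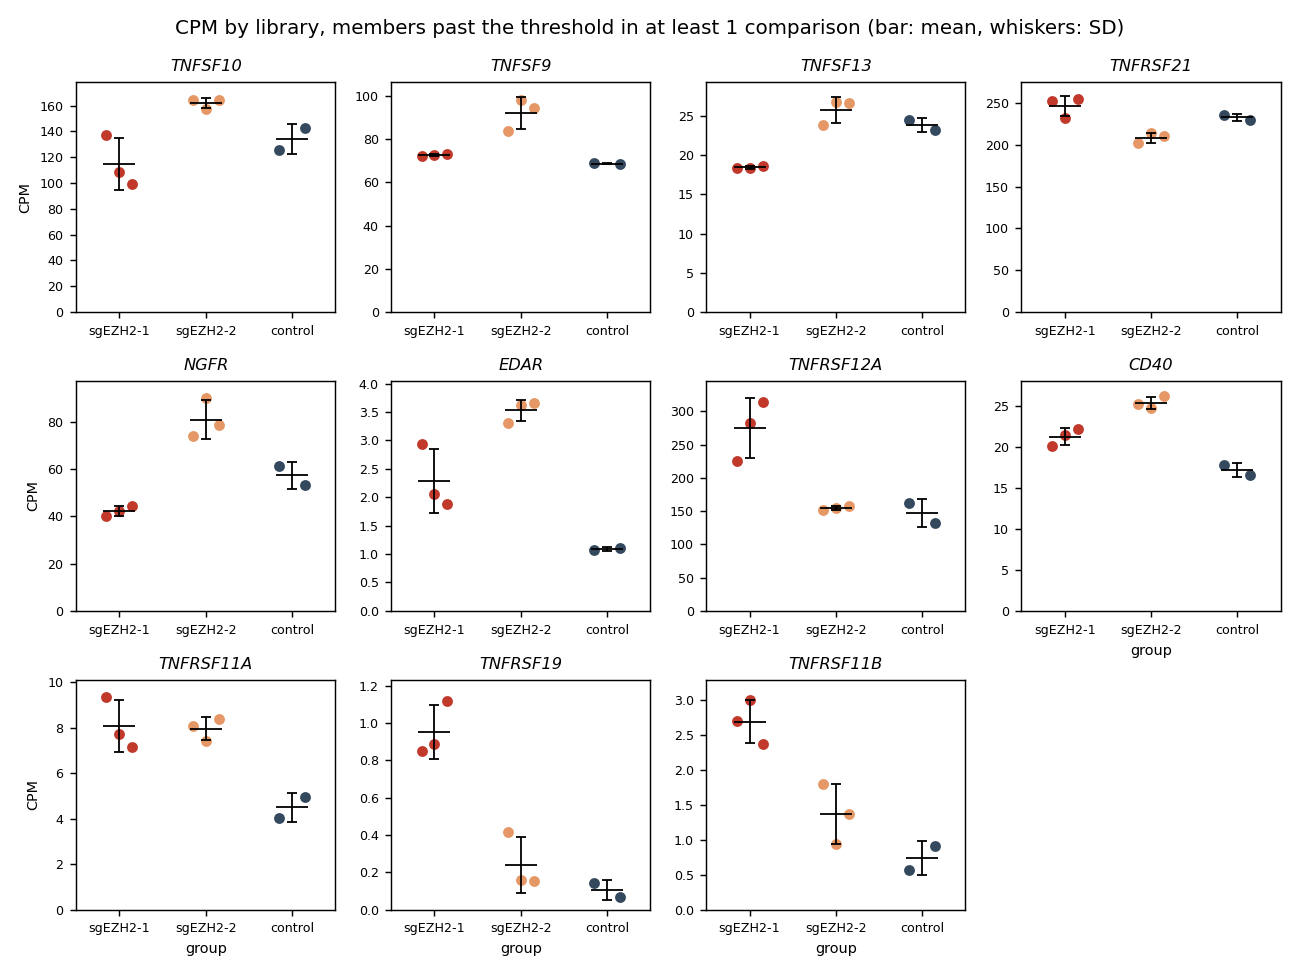
CPM in each library for the 11 members past the threshold in at least 1 of the 4 comparisons, with points for libraries, a bar for the group mean and whiskers for the SD. TNFRSF12A, TNFRSF19 and TNFRSF11B are highest with sgEZH2-1, whereas TNFSF9, NGFR, EDAR and CD40 are highest with sgEZH2-2.

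NGFR moved in opposite directions with the 2 guides. It encodes the low-affinity neurotrophin receptor p75, which carries a death domain (chromosome 17, 49495293 to 49515017). The receptor was at 40.3, 42.1 and 44.6 CPM with sgEZH2-1, at 74.2, 90.2 and 78.5 CPM with sgEZH2-2, and at 61.4 and 53.4 CPM in the controls. No library of 1 group overlapped another group. NGFR fell with sgEZH2-1 (log2 fold change -0.44, SE 0.097, adjusted p = 0.0101) and rose with sgEZH2-2 (0.50, SE 0.096, adjusted p = 0.0102). The guides differed by -0.93 (SE 0.087, adjusted p = 9.76e-05), the strongest difference between the guides in the family by adjusted p. The fall was not called without the first control (adjusted p = 0.106) and the rise not without the second (adjusted p = 0.0910). An antisense gene, AC006487.1, lies on the opposite strand, where 27.1% of the NGFR exons overlap other genes, and the strand setting of the counting is not given in the sources used here.

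A list of NGFR ligands and co-receptors, which also holds BEX3, had 6 tested genes. Of these 4 rose and 0 fell with sgEZH2-1, and 3 rose and 0 fell with sgEZH2-2. Over all tested genes 11.3% were higher with sgEZH2-1 and 6.18% with sgEZH2-2. DESeq2 gave the same numbers, and at an unadjusted p under 0.05, 4 were higher and 0 lower with each guide. NTF3, neurotrophin 3, averaged 5.70 ± 0.457 CPM with sgEZH2-1 (SD, n = 3), 2.32 ± 0.249 CPM with sgEZH2-2 (SD, n = 3) and 0.929 ± 0.392 CPM in the controls (SD, n = 2). NTF3 rose by 2.62 on the log2 scale with sgEZH2-1 (adjusted p = 9.08e-05) and by 1.33 with sgEZH2-2 (adjusted p = 0.0171), and the guides differed by 1.29 (adjusted p = 0.00154). The second control, with 10 counts, lay below the filter's level of 0.700 CPM, so NTF3 passed the filter only with guide libraries. The values of NTF3 are a description and its p-values no independent support, and the counts of risers above include it. BDNF, brain-derived neurotrophic factor, had 1.22 with sgEZH2-1 (adjusted p = 0.000438) and 0.97 with sgEZH2-2 (adjusted p = 0.00382). SORT1, the co-receptor sortilin, had 0.41 with sgEZH2-1 (adjusted p = 0.00162) and 0.28 with sgEZH2-2 (adjusted p = 0.0259). Without the second control the NTF3 rise with sgEZH2-2 was not called (0.94, adjusted p = 0.123), and the SORT1 rise with sgEZH2-2 was lost without any 1 of 6 libraries, namely both controls (0.145 and 0.0875), the second of sgEZH2-1 (0.0522) and each of sgEZH2-2 (0.0511 to 0.0975). NTRK2, the receptor TrkB, is named after its values were seen and had 1.00 with sgEZH2-1 (adjusted p = 0.00718) and 0.50 with sgEZH2-2 (adjusted p = 0.193). NTF4 and BEX3, also named after their values were seen, were called against control with neither guide. NTF4 had -0.40 with sgEZH2-1 (adjusted p = 0.346) and 0.41 with sgEZH2-2 (adjusted p = 0.412). Between the guides NTF4 was at -0.81 (adjusted p = 0.0406). BEX3 had -0.15 with sgEZH2-1 and -0.012 with sgEZH2-2.

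Among ligands, TNFSF9 and TNFSF13 were called against control. TNFSF9 encodes 4-1BBL, a costimulator of T cells (chromosome 19, 6530999 to 6535928). It was at 72.1, 72.4 and 72.9 CPM with sgEZH2-1, at 83.6, 98.0 and 94.4 CPM with sgEZH2-2, and at 68.7 and 68.3 CPM in the controls. The sgEZH2-2 libraries lay above the rest, and the sgEZH2-1 libraries stood just above the controls. With sgEZH2-1 the log2 fold change was 0.081 (SE 0.073, adjusted p = 0.466), and with sgEZH2-2 the gene rose by 0.42 (SE 0.073, adjusted p = 0.00534). The difference of sgEZH2-1 against sgEZH2-2 was -0.34 (adjusted p = 0.00482). TNFRSF9, its receptor, had 2 to 13 counts per library and did not pass with sgEZH2-1 (0.73, adjusted p = 0.356) or sgEZH2-2 (-0.24, adjusted p = 0.855).

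TNFSF13 encodes APRIL, a B cell survival ligand (chromosome 17, 7558292 to 7561608). It was at 18.3, 18.4 and 18.6 CPM with sgEZH2-1, at 23.9, 26.8 and 26.6 CPM with sgEZH2-2, and at 24.5 and 23.2 CPM in the controls. The sgEZH2-1 libraries lay below all others, and the sgEZH2-2 libraries overlapped the controls. The ligand fell with sgEZH2-1 (log2 fold change -0.37, SE 0.083, adjusted p = 0.0110) and had 0.11 with sgEZH2-2 (adjusted p = 0.477). Its difference between the guides was -0.48 (adjusted p = 0.00185). Without the first control the fall missed the threshold (adjusted p = 0.0872). Both its receptors, TNFRSF13B and TNFRSF17, had 0 counts in every library.

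TNFSF10 and TNFRSF21 passed the test between the guides and passed it against control with neither guide. TNFSF10 encodes TRAIL, which can kill tumour cells through its death receptors. It was at 138, 108 and 98.9 CPM with sgEZH2-1, at 164, 157 and 164 CPM with sgEZH2-2, and at 126 and 142 CPM in the controls. The sgEZH2-2 libraries were the highest, and the first sgEZH2-1 library lay within the range of the controls. The log2 fold change stood at -0.23 with sgEZH2-1 (adjusted p = 0.2) and 0.27 with sgEZH2-2 (adjusted p = 0.198), and the guides differed by -0.50 (SE 0.10, adjusted p = 0.00840). Without the first sgEZH2-1 library both values against control passed, at -0.37 (adjusted p = 0.00613) and 0.27 (adjusted p = 0.0301). TNFRSF21 averaged 246 ± 12.4 CPM with sgEZH2-1 (SD, n = 3), 209 ± 6.04 CPM with sgEZH2-2 (SD, n = 3) and 233 ± 3.90 CPM in the controls (SD, n = 2), and the guides differed by 0.24 (SE 0.050, adjusted p = 0.00767).

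Set directly against sgEZH2-2, sgEZH2-1 gave 4 higher and 5 lower members among 23. Of all tested genes 21.9% were called between the guides, 10.4% higher and 11.5% lower. The higher ones were TNFRSF12A, TNFRSF19, TNFRSF11B and TNFRSF21, all receptors. Lower were NGFR, CD40 and the ligands TNFSF9, TNFSF10 and TNFSF13.

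The remaining 12 tested members were called in none of the 4 comparisons. The 4 TRAIL receptor genes sit side by side on chromosome 8: TNFRSF10A and TNFRSF10B encode the death receptors, and TNFRSF10C and TNFRSF10D the decoys. TNFRSF10B averaged 51.0 ± 1.97 CPM with sgEZH2-1 (SD, n = 3), 51.6 ± 1.65 CPM with sgEZH2-2 (SD, n = 3) and 58.3 ± 0.393 CPM in the controls (SD, n = 2). All guide libraries lay below both controls, yet its values of -0.19 with sgEZH2-1 (adjusted p = 0.0581) and -0.17 with sgEZH2-2 (adjusted p = 0.131) did not pass. TNFRSF10A had -0.22 with sgEZH2-1 and 0.0076 with sgEZH2-2, and TNFRSF10D had 0.077 with sgEZH2-1 and -0.16 with sgEZH2-2. TNFRSF10C held at most 5 counts in a library.

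FAS, the receptor of FAS ligand, was at 34.8, 29.9 and 27.0 CPM with sgEZH2-1, at 36.7, 36.8 and 34.0 CPM with sgEZH2-2, and at 31.6 and 41.2 CPM in the controls, so that 4 of the 6 guide libraries lay between the controls. The main TNF receptor TNFRSF1A averaged 129 ± 10.6 CPM with sgEZH2-1 (SD, n = 3), 135 ± 6.27 CPM with sgEZH2-2 (SD, n = 3) and 123 ± 2.06 CPM in the controls (SD, n = 2), with log2 fold changes of 0.070 with sgEZH2-1 and 0.13 with sgEZH2-2. LTBR, the lymphotoxin beta receptor, averaged 131 ± 13.5 CPM with sgEZH2-1 (SD, n = 3), 139 ± 10.1 CPM with sgEZH2-2 (SD, n = 3) and 137 ± 14.4 CPM in the controls (SD, n = 2). The ligand TNFSF15 had 0.028 with sgEZH2-1 and -0.17 with sgEZH2-2, and its receptor TNFRSF25 had -0.089 with sgEZH2-1 and -0.081 with sgEZH2-2. Across these 8 members above 2 CPM in the controls, values ran from -0.26 to 0.13 over both guides. The other 4 were near the filter: CD70, the ligand of CD27, had 8, 3 and 9 counts with sgEZH2-1, 12, 12 and 6 with sgEZH2-2, and 4 and 2 in the controls, with log2 fold changes of 1.19 with sgEZH2-1 (adjusted p = 0.249) and 1.82 with sgEZH2-2 (adjusted p = 0.114). TNFRSF14, the receptor HVEM, had 0.85 with sgEZH2-1 and 1.02 with sgEZH2-2, and TNFRSF13C, the BAFF receptor, had 0.97 with sgEZH2-1 and 0.32 with sgEZH2-2.

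Of 27 ligand and receptor pairs listed for the family, 5 had both sides tested, 11 only the receptor, 4 only the ligand and 7 neither. The 5 were TNFSF10 with TNFRSF10A, TNFRSF10B and TNFRSF10D, TNFSF15 with TNFRSF25, and TNFSF9 with TNFRSF9. In 0 of them were both sides called with the same guide.

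Of 12 tested TRAF and IAP adaptors downstream of the receptors 0 passed with either guide, where 20.8% of all tested genes were called with sgEZH2-1 and 8.68% with sgEZH2-2. At an unadjusted p under 0.05 the list gave 1 higher and 0 lower with sgEZH2-1 and 2 higher and 1 lower with sgEZH2-2, and DESeq2 called 0 with each guide. Of 10 NF-kB subunits and IkB proteins 0 passed as well. Unadjusted, 0 were higher and 0 lower with sgEZH2-1 and 1 and 1 with sgEZH2-2, and DESeq2 called 0.

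Of 11 death-domain adaptors and caspase genes 18.2% were called with sgEZH2-1 and 9.09% with sgEZH2-2, near the 20.8% and 8.68% of all tested genes. CFLAR, the caspase-8 inhibitor FLIP, fell with sgEZH2-1 (-0.25, adjusted p = 0.0218). With sgEZH2-2 the only call was MLKL, the effector of necroptosis (-0.33, adjusted p = 0.0493), and it was lost under RLE scaling (adjusted p = 0.0519) and when any library but the first of sgEZH2-1 was left out (0.0574 to 0.258). The CFLAR call was lost without the second control (0.133) and without the second (0.0952) or the third (0.0749) sgEZH2-1 library. With sgEZH2-2, 0 genes of this list were higher at an unadjusted p under 0.05 and 2 lower, and DESeq2 called 0.

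In the list of 13 LUBAC, TAK1 and IKK genes 1 rose and 2 fell with sgEZH2-1, and 0 rose and 2 fell with sgEZH2-2. These are 23.1% and 15.4% of the list, against 20.8% and 8.68% of all tested genes, so the share with sgEZH2-1 is near that of all genes. Unadjusted, 0 were higher and 2 lower with sgEZH2-2, and DESeq2 called 0 higher and 1 lower. CHUK, the kinase IKK-alpha, had 0.41 with sgEZH2-1 (adjusted p = 0.00425) and 0.053 with sgEZH2-2, a difference of 0.36 (adjusted p = 0.00533). IKBKB, another IKK gene, is named after its values were seen and went the other way with sgEZH2-1 (-0.33, adjusted p = 0.0345). With sgEZH2-2 IKBKB had -0.17 (adjusted p = 0.339). OTULIN, which removes linear ubiquitin, had -0.26 with sgEZH2-1 (adjusted p = 0.0149) and -0.26 with sgEZH2-2 (adjusted p = 0.0303). MAP3K14, the kinase NIK of the alternative NF-kB pathway, had -0.029 with sgEZH2-1 and -0.43 with sgEZH2-2 (adjusted p = 0.0321). OTULIN was not called with sgEZH2-1 without the second control (0.0736) or the second sgEZH2-1 library (0.0655). With sgEZH2-2 its call was lost without any 1 of 6 libraries, namely both controls (0.0804 and 0.147), the second of sgEZH2-1 (0.0761) and each of sgEZH2-2 (0.0871 to 0.108). The MAP3K14 call was lost without the first control (0.228), the second sgEZH2-1 library (0.0535), and the first (0.0935) or the third (0.0967) sgEZH2-2 library. Of the 7 shedding genes 14.3% were called with sgEZH2-1 and 0 with sgEZH2-2, against 20.8% and 8.68% of all tested genes. Unadjusted, 0 of them were higher and 1 lower with sgEZH2-2, and DESeq2 called 0. TIMP3, an inhibitor of ADAM17, rose with sgEZH2-1 (0.23, adjusted p = 0.0273) and had -0.17 with sgEZH2-2 (adjusted p = 0.131). The sgEZH2-1 call was lost without the first control (0.159) or the second sgEZH2-1 library (0.0910).

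Of 24 tested NF-kB target genes 3 rose and 2 fell with sgEZH2-1, and 5 rose and 0 fell with sgEZH2-2. With each guide 20.8% of the list was called, which equals the 20.8% of all tested genes with sgEZH2-1 and stands against 8.68% with sgEZH2-2. In the sgEZH2-2 comparison 2 were lower at an unadjusted p under 0.05, and DESeq2 called 0 lower and 5 higher. CXCL8, the neutrophil chemokine, was at 10.2, 11.6 and 12.04 CPM with sgEZH2-1, at 30.6, 21.2 and 30.4 CPM with sgEZH2-2, and at 28.96 and 31.03 CPM in the controls. The sgEZH2-1 libraries were the lowest, with a log2 fold change of -1.41 (SE 0.15, adjusted p = 0.000168), against -0.13 with sgEZH2-2 (adjusted p = 0.660) and a difference of -1.28 (adjusted p = 0.000245). CD83, a surface protein of mature dendritic cells, had 1.65 with sgEZH2-1 (adjusted p = 0.000437) and 1.52 with sgEZH2-2 (adjusted p = 0.00146). CCL2, a monocyte chemokine, had 1.85 with sgEZH2-1 (adjusted p = 0.00114) and 1.5 with sgEZH2-2 (adjusted p = 0.00933). The sgEZH2-2 call of CCL2 was lost without the first control. That control, with 9 counts, lay below the filter's level of 0.700 CPM, so CCL2 passed the filter only with guide libraries. The values of CCL2 are a description and its p-values no independent support, and the counts of risers above include it.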

How the data were processed

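RNA of 8 HSC-5 libraries was sequenced after preparation with a stranded mRNA kit, per the labels' protocols. The deposited values are raw counts, integers for each gene in each library. The submitters' processing notes name build hg38 and the tools DESeq, STAR and FastQC. How reads were assigned to genes (tool, annotation, strand) is not given in the sources used here, nor are versions. Columns name the group but no replicate number, so libraries are named by their order within a group.

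Library totals ran from 12607952 to 15468597 counts. For CPM the totals were scaled by TMM in edgeR. Genes passed filterByExpr (minimum count 10): 13124 of 20294; 0 rows lacked a name. Tests were two-sided and used edgeR 4.0.16 (R 4.3.3) with glmQLFit and glmQLFTest, Benjamini-Hochberg adjusted over all tested genes, threshold 0.05. Each guide against control and the guides against each other were contrasts of 1 fit of 3 groups; the pooled comparison was a fit of 2 levels. Standard errors come from the F statistic. DESeq2 1.42.0, 2 other scalings (RLE and upper quartile), 2 other filters, fits of only the groups compared and leaving out each library were alternatives. Exon lengths and positions are from GENCODE release 29 (GRCh38, the same build). Counting intervals are exact, at 95%. The code was tested on simulated data.

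Members called in at least 1 comparison are described in full, and up to 3 genes with the smallest adjusted p from each pathway list. Members and lists were chosen with earlier results of these data known. Libraries of a group differed by more than sampling noise. The control that the authors left out was not used here. Some genes of the lists are not reported here.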

Additional observations from a re-analysis of the deposited data

Results flagged for a closer look

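The effect of sgEZH2-1 against control differed from that of sgEZH2-2 against control, by the direct test of the guides, in 9 family members. Given as sgEZH2-1 minus sgEZH2-2 in log2 fold change, with the adjusted p of edgeR, NGFR was at -0.93 (9.76e-05), TNFRSF12A at 0.83 (0.000801), TNFSF13 at -0.48 (0.00185), TNFSF9 at -0.34 (0.00482) and TNFRSF21 at 0.24 (0.00767). TNFSF10 was at -0.50 (0.00840), TNFRSF19 at 1.91 (0.0137), TNFRSF11B at 0.96 (0.0294) and CD40 at -0.26 (0.0312). Of all tested genes 21.9% were called between the guides. TNFRSF19 and TNFRSF11B passed the filter on low counts only with guide libraries, so their values are a description.

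Among the named genes around the family the same test gave CXCL8 at -1.28 (0.000245), EDARADD at -0.73 (0.000536), TIMP3 at 0.39 (0.00102), NTF3 at 1.29 (0.00154), CHUK at 0.36 (0.00533), MAP3K14 at 0.40 (0.0150) and CFLAR at -0.19 (0.0419). NTF4, named after its values were seen, was at -0.81 (0.0406). NTF3 passed the filter on low counts only with guide libraries, so its value is a description. The EZH2 transcript itself was at -0.36 (0.00844), with 53.5 ± 4.79 CPM with sgEZH2-1, 68.8 ± 4.50 CPM with sgEZH2-2 (SD, n = 3 each) and 83.4 ± 0.976 CPM in the controls (SD, n = 2). Its part in these differences was not tested.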

How the results depend on the processing

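No paired analysis was possible because the columns of the table carry no replicate number. Of 24 calls of family members over the 4 comparisons, 12 kept the call under every alternative that gave a value. The number of members called with the guides pooled was 2, or 1 with a filter at a minimum count of 30, and 6 with the mean of both guides in the fit of 3 groups, which was added after seeing the data; over all genes that fit called 1612 in place of 572. Leaving out 1 library at a time, the members called ranged from 3 to 9 with sgEZH2-1, 4 to 6 with sgEZH2-2, 6 to 9 between the guides and 0 to 2 pooled. The genes called ranged from 1373 to 2591 with sgEZH2-1, 521 to 1364 with sgEZH2-2, 1521 to 2994 between the guides and 145 to 510 pooled. The lowest values came without a control, except between the guides. The scalings moved the median of all genes by less than 0.1 on the log2 scale and changed no member's call.

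Signs turned only in values that were not called, each on leaving out 1 library. With sgEZH2-1, MAP3K14 ranged from -0.15 to 0.099 (0.047 without the first sgEZH2-1 library). With sgEZH2-2, TNFRSF12A ranged from -0.071 to 0.23, CFLAR from -0.13 to 0.021 and CXCL8 from -0.21 to 0.025. Between the guides, TNFRSF11A stood at -0.097 and -0.031 without the first sgEZH2-1 or the second sgEZH2-2 library. Pooled, NGFR ranged from -0.036 to 0.21, TNFRSF21 from -0.064 to 0.011 and TNFSF10 from -0.036 to 0.14 (-0.011 without the third sgEZH2-2 library). The cause was not tested. Depth limits the members near the filter, where 3 control counts set the ratio of TNFRSF19.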
